A study of Mus musculus with 18 samples.

Results

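The receptors examined here are the proteins by which a myoblast holds on to its matrix and to its neighbours. They are 5 integrin subunits (Itgb1, Itga5, Itgav, Itga7 and Itgb5), 2 cadherins (Cdh2 and Cdh15), 2 adhesion molecules of the immunoglobulin superfamily (Ncam1 and Kirrel) and the hyaluronan receptor Cd44. They were taken by gene symbol from the deposited count table, where all 10 were found among 25957 genes, and all 10 were among the 10075 genes with enough counts to be tested. The mRNAs were measured by BRB-seq, a bulk method that barcodes each sample before pooling and counts mainly the poly(A)-proximal ends of transcripts. The cells were C2C12, an established mouse myoblast line, in 18 libraries that form 6 groups of 3.

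Cells of every group grew in medium with 20% fetal bovine serum. In the 3 time groups they were washed with PBS and kept at 37 °C under 200 µL of 0.25% trypsin, which acted for 30 s, for 3 min or for 30 min. For low trypsin the same solution was added and withdrawn at once, and the cells then stood at 37 °C for 3 min. In the cold protease group the cells were shaken at 4 °C for 5 min in a cold-active protease. Control cells met no enzyme and were lysed and scraped in the plate. The cold protease group differs from each trypsin group in enzyme, temperature and time at once, and these cannot be told apart. The libraries of a group are numbered as lots, called replicates here; no source used here says what a lot is or whether lots were separate cultures. The p-values therefore set each difference against the spread among these samples only, and that spread may be technical.

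Integrins are dimers of an alpha and a beta subunit that bind matrix proteins outside the cell and, through adaptor proteins, the actin cytoskeleton inside. Cadherins join neighbouring cells by calcium-dependent binding of like to like and are anchored to actin by catenins. Trypsin and related proteases cut such proteins on the cell surface, which is how adherent cells are detached. The libraries report the mRNAs of these receptors, not the proteins on the surface.

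Library totals were 1490869 to 2480690 counts, so that 3 counts, taken as the floor for counting error, equalled 1.21 to 2.01 CPM (counts scaled to the size of the library). Of 9 myoblast markers, Des was at 785 to 958 CPM, Chrna1 at 126 to 182 CPM, Myf5 at 55.7 to 132 CPM and Myod1 at 44.2 to 69.1 CPM in the 18 libraries. Chrnd had 5.29 CPM at its lowest and Musk at most 8.49 CPM, and Pax7, Msc and Myf6 had at most 2.71 CPM. Of 10 markers of differentiated muscle, 7 had enough counts to be tested. Acta1 was at 57.1 to 111 CPM, Mylpf at 42.1 to 108 CPM and Myog at 19.5 to 40.4 CPM. Myh3 had at most 15.7 CPM and Tnnt3 at most 16.1 CPM. Ckm, Myh8 and Atp2a1 had too few counts to be tested, Myh8 with at most 0.489 CPM and Atp2a1 with at most 1.31 CPM. The 10 genes summed to 198 to 275 CPM in the treated libraries, against 278 to 317 CPM in control. The part of this difference in the results was not tested. The summed leukocyte markers reached at most 6.75 CPM, the endothelial markers at most 1.56 CPM and the epithelial markers at most 4.23 CPM. The summed neural and glial markers stood at 29.0 to 45.7 CPM, mostly from Tubb3 (28.6 to 45.1 CPM). In bulk samples, fewer cells of a type and less RNA per cell cannot be told apart.

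Kirrel was the only receptor mRNA that passed the test against control or over the 6 groups. It rose about 2.17-fold after 30 s in trypsin and 3.07-fold after low trypsin, and it was close to control after 3 min, after 30 min and after the cold protease. None of the other 9 receptor mRNAs passed the test against control in any of the 5 treatments. Between treatments, Ncam1 passed it at 30 min against 30 s (edgeR adjusted p = 0.0152), which ended when some single libraries were left out. In edgeR's quasi-likelihood F test over the 6 groups, with p-values adjusted over all 10075 genes and called under 0.05, Kirrel was 1 of 10 members called (adjusted p = 1.28e-14, the 84th smallest p of 10075), against 11.5% of all tested genes. The other 9 had adjusted p-values of 0.101 to 0.938.

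Kirrel encodes a transmembrane protein of the immunoglobulin superfamily, best known as Neph1, which binds nephrin at the filtration slit of the kidney; its Drosophila relatives act in the recognition and fusion of myoblasts. The gene lies on chromosome 3 of GRCm38 at 87078593 to 87174747 on the minus strand. Its principal annotated isoform has 16 exons and 7278 nt, of which 4543 nt are 3' UTR, the longest transcript and the longest 3' UTR among the members (3251 to 7278 nt and 374 to 4543 nt). Per library it was covered by 31 to 160 counts.

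After 30 s in trypsin, Kirrel stood at 47.4, 44.6 and 51.9 CPM, against 24.4, 21.0 and 21.2 CPM in the control libraries. Every library of the 30 s group was above every control library; in this comparison 21.9% of tested genes had libraries that did not overlap. The log2 fold change was 1.12 ± 0.16 (SE; edgeR adjusted p = 6.48e-07), the only member called in this comparison, where 3.24% of tested genes were called higher.

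After low trypsin, Kirrel reached 61.8, 66.6 and 74.8 CPM, again clear of the control libraries, as were 19.6% of tested genes in one direction or the other. The log2 fold change against control was 1.62 ± 0.15 (edgeR adjusted p = 1.85e-11). Kirrel was the 1 member called here as well, beside 3.30% of tested genes called higher.

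The longer exposures gave other values. Kirrel had 23.0, 28.4 and 31.5 CPM after 3 min and 26.4, 23.1 and 25.2 CPM after 30 min, both overlapping the 21.0 to 24.4 CPM of control. The log2 fold change against control was 0.32 ± 0.19 at 3 min (edgeR adjusted p = 0.508) and 0.17 ± 0.19 at 30 min (adjusted p = 0.736). Their 95% intervals ran from 0.962-fold to 1.62-fold and from 0.863-fold to 1.47-fold. No member was called at 3 min or at 30 min against control, where 3.96% and 4.68% of tested genes were called in either direction.

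After the cold protease, Kirrel had 21.0, 26.8 and 17.8 CPM, on both sides of the control libraries. Its log2 fold change was 0.01 ± 0.19 (edgeR adjusted p = 0.994), with an interval of 0.779-fold to 1.31-fold. No member was called in this comparison, in which 0.665% of tested genes were called.

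**Figure D1:**
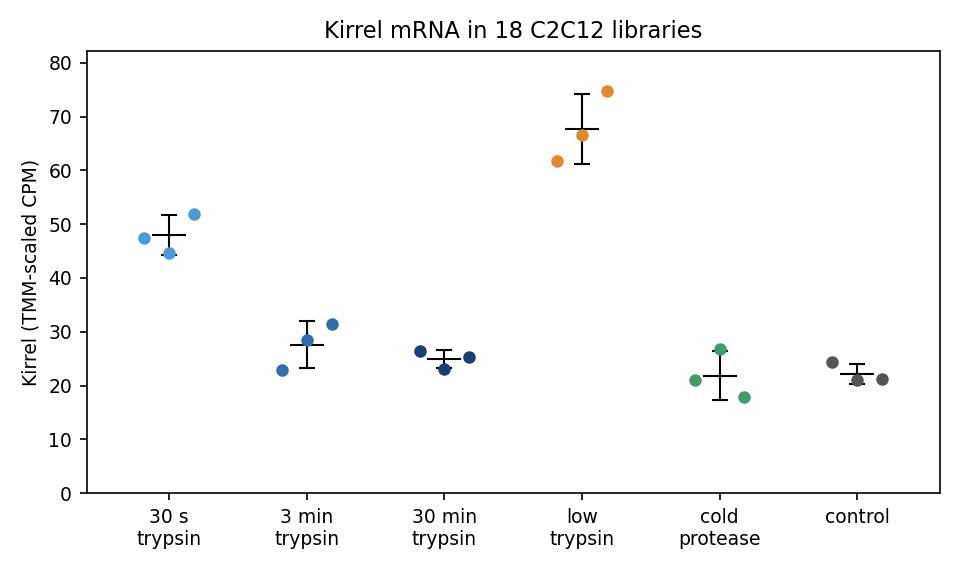
Kirrel mRNA in TMM-scaled CPM (y axis) in each of the 18 libraries (points) by group (x axis), with the mean and SD of 3 libraries as a bar. The 30 s libraries at 44.6 to 51.9 CPM and the low trypsin libraries at 61.8 to 74.8 CPM lie above the 17.8 to 31.5 CPM of the other 4 groups.

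The treatments were also compared with each other. Kirrel fell to 27.6 ± 4.32 CPM after 3 min in trypsin, against 48.0 ± 3.72 CPM after 30 s (SD, n = 3 each), a log2 fold change of -0.80 ± 0.16 (edgeR adjusted p = 0.00100). It was the 1 member called, lower as were 1.46% of tested genes. After 30 min it averaged 24.9 ± 1.69 CPM, which was lower than after 30 s by a log2 fold change of -0.95 ± 0.16 (edgeR adjusted p = 3.09e-05; 2.11% of tested genes called lower) and did not differ from 3 min beyond the spread of the libraries (-0.15 ± 0.19, adjusted p = 0.822). No member was called at 30 min against 3 min, where 4.03% of tested genes were.

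Low trypsin and the 3 min group spent the same time at 37 °C, and the trypsin solution was withdrawn at once only in low trypsin. The amount of trypsin, the liquid over the cells and the handling thus differed together and cannot be told apart. Kirrel averaged 67.7 ± 6.56 CPM after low trypsin and 27.6 ± 4.32 CPM after 3 min, 2.46-fold higher (log2 fold change 1.30 ± 0.15, edgeR adjusted p = 3.37e-09), and was the 1 member called, beside 3.78% of tested genes called higher. Cold protease against 3 min gave -0.31 ± 0.18 for Kirrel (adjusted p = 0.551) and no member called, against 3.70% of tested genes.

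The order of the Kirrel means was low trypsin, 30 s, 3 min, 30 min, control and cold protease. Low trypsin stood above 30 s in every library (16.6% of tested genes did not overlap here), by a log2 fold change of 0.50 ± 0.13 (edgeR adjusted p = 0.0181; 2.55% of tested genes called higher). That last call ended without 30 s replicate 1 (adjusted p = 0.0738), without 30 s replicate 2 (0.105), without low trypsin replicate 3 (0.142) and under the DESeq2 test (0.0700). The neighbours from 3 min downwards overlapped in their libraries. The comparisons of low trypsin and of 30 min with 30 s were added after the data had been seen.

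Some values measured on the whole libraries moved with the Kirrel level. Pseudogenes took 0.782% to 0.861% of the counts after 30 s and 0.965% to 0.998% after low trypsin, against 0.554% to 0.712% in the other 4 groups. On the first principal component of log2 CPM, which held 13.7% of the variance, the 30 s libraries lay at 11.2 to 13.9 and the low trypsin libraries at 14.9 to 15.8, while no other library was above -0.39. Not all such values did so. Ribosomal protein genes took 5.22% to 5.26% of the counts after 30 s and 5.95% to 6.26% after low trypsin. They took 5.09% to 5.11% after 3 min and 6.55% to 6.74% in control. The part of these values in the Kirrel result was not tested.

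Reads of other genes at the Kirrel locus were few. Gm37855, a long noncoding RNA annotated on the opposite strand within the gene, had 22 counts over the 18 libraries and at most 4 in any of them. No other annotated transcript shared a stretch of 45 nt or more at 95% identity with the principal isoform. Of the 6 nearest genes on each side, 4 were tested (Dclk2, Lrba, Etv3 and Arhgef11), and none was called against control in any treatment; the smallest adjusted p among them was 0.101.

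Of all tested genes with a symbol of their own, the 3 whose log2 CPM followed Kirrel most closely over the 18 libraries were Ppp2cb (Pearson r = 0.924), Kif18b (0.911) and Crtc2 (0.891). The libraries, their scaling and the groups are shared by these pairs, so the coefficients are descriptions. Ppp2cb, a catalytic subunit of protein phosphatase 2A, averaged 49.2 ± 0.0839 CPM after 30 s and 63.3 ± 2.61 CPM after low trypsin, against 29.6 ± 2.81 CPM in control (SD, n = 3 each). Kif18b, a mitotic kinesin, averaged 42.9 ± 3.05 and 57.8 ± 1.34 CPM in the 30 s and low trypsin groups, against 26.7 ± 3.67 CPM in control. Crtc2, a coactivator of CREB, averaged 44.6 ± 2.70 and 47.9 ± 4.39 CPM in these groups, against 16.7 ± 2.24 CPM in control. That these genes are high in the same groups as Kirrel follows from how they were chosen.

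**Figure D2:**
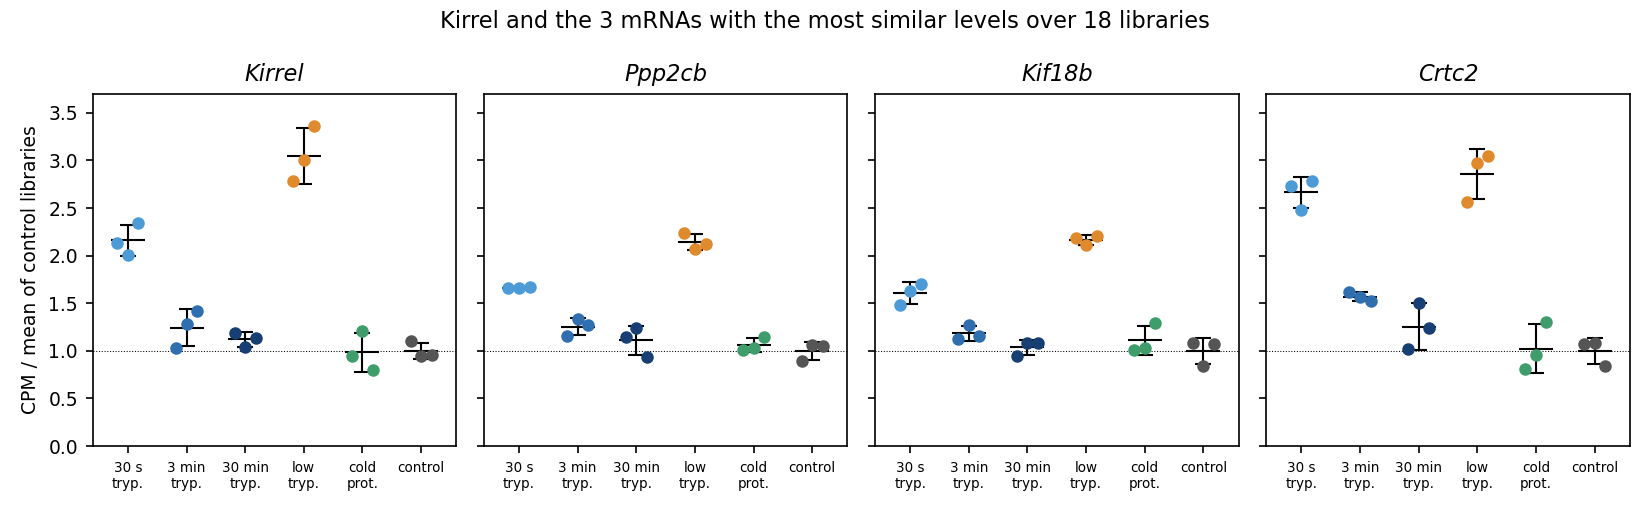
CPM of Kirrel, Ppp2cb, Kif18b and Crtc2 in each library (points) divided by the mean of the control libraries of that gene (y axis), by group (x axis), with mean and SD of 3 libraries as a bar and a dotted line at the control mean. The 30 s and low trypsin libraries stand highest for all 4 genes, which were chosen for this likeness.

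Among the integrins, Itgb1 encodes the beta 1 subunit, the common partner of Itga5 and Itga7. It had 764, 751 and 739 CPM after 30 s, 768, 784 and 779 CPM after 3 min and 908, 775 and 775 CPM after 30 min. Low trypsin gave 766, 743 and 762 CPM and the cold protease 788, 739 and 819 CPM, against 759, 759 and 800 CPM in control. Apart from 30 min replicate 1, the libraries lay within a narrow band, and the log2 fold changes against control were between -0.04 (30 s) and 0.08 (30 min), each with an SE of 0.05 or 0.06. The ratio of the highest to the lowest group mean was 1.09.

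Itga5 pairs with beta 1 as a fibronectin receptor. It ran from 132 CPM (30 min replicate 1) to 184 CPM (cold protease replicate 3) over the 18 libraries, and the largest difference from control was 0.17 ± 0.09 on the log2 scale after the cold protease (160 to 184 CPM, against 138 to 175 CPM in control; edgeR adjusted p = 0.608). Each treatment overlapped control. The 3 min libraries, at 163 to 168 CPM, were clear of those of 30 s (134 to 161 CPM, edgeR adjusted p = 0.531), without a call. They were also clear of low trypsin (142 to 159 CPM, adjusted p = 0.643 for low trypsin against 3 min), again without a call. Such a separation in either direction was met in 16.1% and 17.0% of tested genes in these comparisons. Of the 10 members, 3 lay clear above and 2 clear below at 3 min against 30 s. At low trypsin against 3 min, 2 lay clear above and 4 clear below. Kirrel is counted in both and was the only one of these called.

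Itga7 pairs with beta 1 as the laminin receptor of muscle. It lay between 168 and 209 CPM, and its largest difference from control was 0.11 ± 0.08 at 3 min (197 to 203 CPM, against 168 to 207 CPM; adjusted p = 0.646). Low trypsin was lower than 3 min by a log2 fold change of -0.18 ± 0.08, with 171 to 185 CPM against 197 to 203 CPM. These libraries did not overlap, as held for 17.0% of tested genes in that comparison, and the adjusted p was 0.257.

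Itgav and Itgb5 together form a vitronectin receptor. Itgav had 112 to 122 CPM at 30 min, against 99.5 to 116 CPM in control, a log2 fold change of 0.17 ± 0.09 (adjusted p = 0.384) and the largest of its 5 differences from control. Itgb5 varied from 143 to 181 CPM, and its fold changes against control lay between -0.08 and 0.00 on the log2 scale. Its group means differed by a ratio of 1.06 at most.

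Cdh15, or M-cadherin, is a cadherin of the muscle lineage. It had 151, 126 and 128 CPM after 30 min in trypsin, against 125, 96.7 and 123 CPM in control. The 30 min libraries lay above those of control, though by little for 2 of them, and such a separation in either direction was met in 19.5% of tested genes. The log2 fold change was 0.24 ± 0.10 (unadjusted p = 0.0208, a value under 0.05 being met in 16.4% of tested genes; edgeR adjusted p = 0.193). After 3 min it had 132, 122 and 135 CPM (0.18 ± 0.10, adjusted p = 0.485), and after low trypsin 112, 118 and 104 CPM (-0.04 ± 0.10, adjusted p = 0.908).

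Cdh2, or N-cadherin, had the fewest counts of the members, with 29 to 66 per library. It had 28.7, 27.2 and 27.8 CPM after 30 s, 20.0, 22.4 and 19.4 CPM after 3 min and 23.3, 25.7 and 22.1 CPM after 30 min, against 19.3, 28.8 and 26.4 CPM in control. The control libraries spanned nearly the whole range. The 3 min libraries lay below those of 30 s, a separation seen in 16.1% of tested genes, with a log2 fold change of -0.43 ± 0.19 (edgeR adjusted p = 0.399). Against control the 95% interval was 0.860-fold to 1.43-fold at 30 s and 0.622-fold to 1.09-fold at 3 min, and no treatment was called.

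Ncam1 encodes the neural cell adhesion molecule, an immunoglobulin superfamily protein that myoblasts also carry. After 30 s it had 161, 151 and 138 CPM, after 3 min 147, 163 and 159 CPM and after 30 min 212, 192 and 164 CPM, against 171, 145 and 174 CPM in control. The 30 min group was the highest, with 1 of its libraries inside the control range, and its log2 fold change against control was 0.22 ± 0.09 (unadjusted p = 0.0195; edgeR adjusted p = 0.186).

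Between trypsin times, Ncam1 averaged 189 ± 24.1 CPM after 30 min and 150 ± 11.3 CPM after 30 s (SD, n = 3 each), and every 30 min library was above every 30 s library. The log2 fold change was 0.33 ± 0.09 (edgeR adjusted p = 0.0152), making Ncam1 the 1 member called higher in this comparison, where 2.82% of tested genes were and 20.0% did not overlap. The call ended without 30 s replicate 3 (adjusted p = 0.114), without 30 min replicate 1 (0.175) and without 30 min replicate 2 (0.0529). Against 3 min the difference was 0.28 ± 0.09 (adjusted p = 0.0872, and 0.0155 without 30 min replicate 3). Without that library the F test over the 6 groups also called Ncam1 (adjusted p = 0.0212).

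Cd44 binds hyaluronan and is cut by membrane proteases in many cells. It had 624 to 705 CPM after 30 s, 675 to 688 CPM after 3 min, 651 to 695 CPM after 30 min, 624 to 679 CPM after low trypsin and 649 to 684 CPM after the cold protease, against 566 to 705 CPM in control. Its 5 log2 fold changes against control were between -0.03 and 0.05, each with an SE of 0.06. Cd44 had the smallest ratio of highest to lowest group mean among the members, 1.05, and Kirrel the largest, 3.10.

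**Figure D3:**
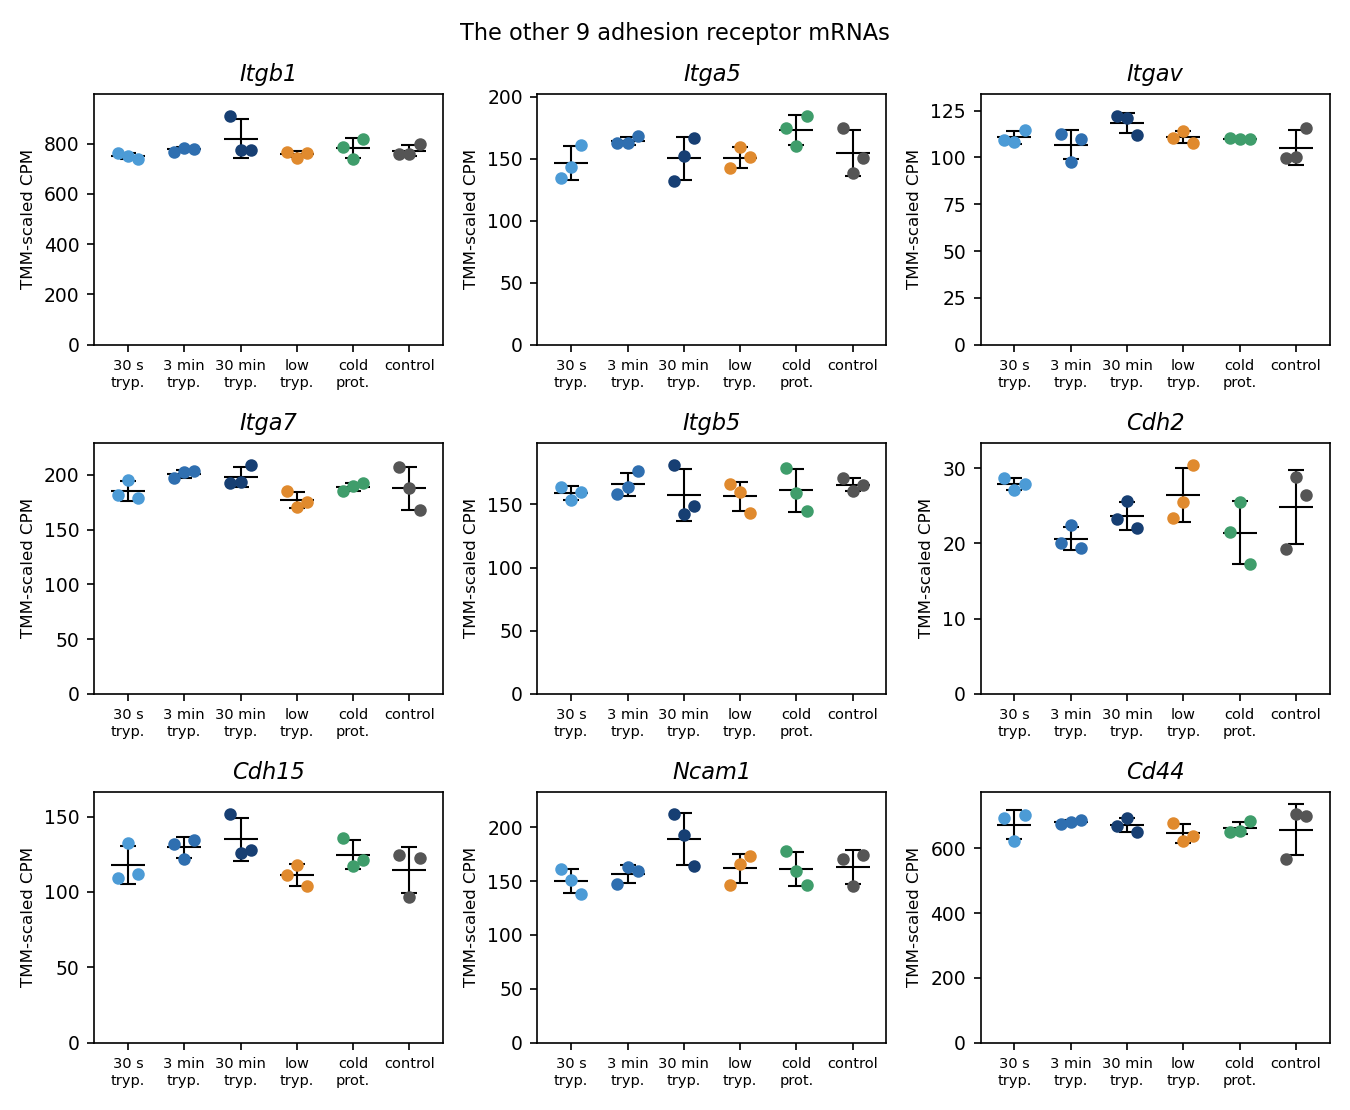
CPM (TMM-scaled, y axis, each panel on its own scale from 0) of the 9 receptor mRNAs other than Kirrel in every library (points) by group (x axis), with mean and SD of 3 libraries as a bar. Each treatment overlaps control in every panel except Cdh15 at 30 min, while some treatments lie clear of each other. The 30 min libraries of Ncam1 (164 to 212 CPM), for instance, all lie above those of 30 s (138 to 161 CPM). In that comparison 20.0% of tested genes did not overlap.

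The 45 differences from control of the 9 members other than Kirrel were between -0.28 (Cdh2, 3 min) and 0.24 (Cdh15, 30 min) on the log2 scale. None was called, the smallest adjusted p was 0.186, and 2 had an unadjusted p under 0.05. Both were at 30 min (Cdh15 and Ncam1), where 16.4% of tested genes had such a value. For the 8 members with more counts than Kirrel and Cdh2, all 40 of the 95% intervals lay within 0.814-fold to 1.36-fold of control. The coefficient of variation among the 3 libraries of a group had a median of 7.16% over 60 values, from 0.252% to 20.8%.

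**Figure D4:**
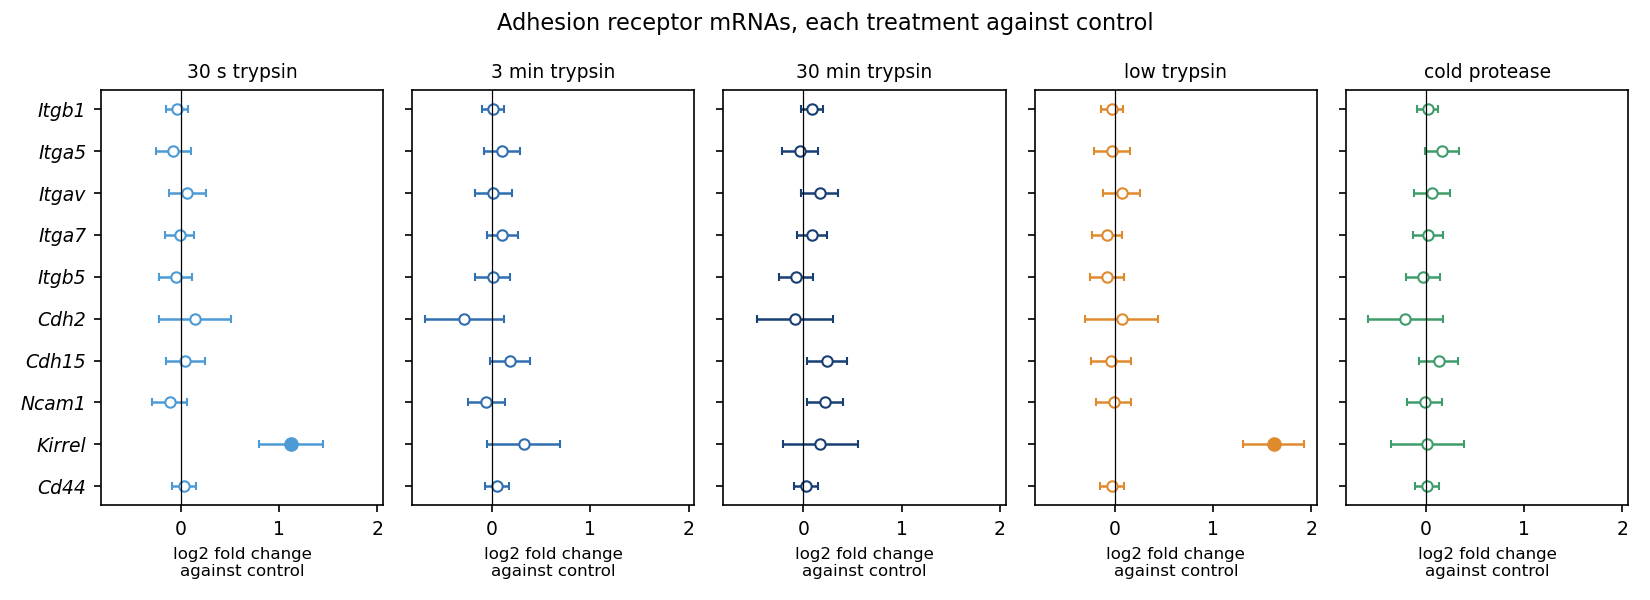
Log2 fold change against control (x axis) of the 10 receptor mRNAs (rows) in the 5 treatments (panels), with 95% intervals from edgeR; filled points were called at an adjusted p under 0.05. Only Kirrel after 30 s (1.12) and after low trypsin (1.62) is filled.

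Genes that work with these receptors were read from 9 lists with 219 genes, of which 153 were tested. After 30 s 9 of these rose and 1 fell, which is 6.54% of them beside 6.94% of all tested genes. After 3 min 7 rose (4.58%, beside 3.96%), and after 30 min 9 rose and 1 fell (6.54%, beside 4.68%). After low trypsin 17 rose and 2 fell (12.4%, beside 5.19%), and after the cold protease 4 rose (2.61%, beside 0.665%). The lists were chosen with earlier results of these data known, so these shares are descriptions. Under the DESeq2 test and without the low-count filter, the 19 calls after low trypsin became 13 in each case. Calls over all genes went from 523 to 399 and 493. Of the 50 calls, 21 kept their side of the threshold whichever single library of the 2 groups was left out, and the calls given with a p below are among these unless stated. Of 6 tested integrin subunits other than the members, and of 11 tested partners in myoblast recognition and fusion, none was called against control or over the 6 groups.

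Ligands of the receptors were the list with the most calls: of 20 tested, 4 rose at 30 s (Ccn1, Ccn2, Thbs1 and Lama5), 5 at 3 min (Ccn1, Tnc, Col1a2, Thbs1 and Hspg2), 6 at 30 min, 6 after low trypsin and 2 after the cold protease (Col1a2 and Hspg2), and none fell. Of these 23 calls, 14 kept their side of the threshold whichever library was left out and 9 did not: Lama5 at 30 s, Col1a2, Thbs1 and Hspg2 at 3 min, Lama5, Col1a1 and Tnc at 30 min, and Col1a2 and Nid1 after low trypsin, with the highest adjusted p of each between 0.0535 and 0.231. Thbs1, Lama5, Tnc, Hspg2, Col1a1 and Nid1 were named after their values had been seen. In the same order of treatments the list's median log2 fold change was 0.13, 0.20, 0.20, 0.27 and 0.13, beside medians between 0.00 and 0.01 over all tested genes. Ccn1, a secreted matrix protein that binds integrins, averaged 418 ± 13.6 CPM after 30 s, 405 ± 13.1 CPM after 3 min and 477 ± 16.2 CPM after low trypsin, against 233 ± 7.56 CPM in control (SD, n = 3 each; edgeR adjusted p = 4.83e-15, 6.21e-14 and 4.26e-18). Ccn2, its relative, averaged 139 ± 4.55 CPM after 30 s and 169 ± 17.2 CPM after low trypsin, against 82.2 ± 12.5 CPM in control (edgeR adjusted p = 2.40e-07 and 6.66e-11). Fn1, the fibronectin bound by the dimer of Itga5 and Itgb1, rose to 1292 ± 8.16 CPM after 30 min, against 1038 ± 50.9 CPM in control (log2 fold change 0.32 ± 0.05, edgeR adjusted p = 1.01e-05). Col1a2, a chain of type I collagen, averaged 1567 ± 9.15 CPM after 30 min and 1555 ± 111 CPM after the cold protease, against 1230 ± 41.4 CPM in control (edgeR adjusted p = 7.80e-07 and 1.29e-05).

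The remaining lists held fewer calls. Of 27 other immunoglobulin, proteoglycan and glycoprotein receptors, 2 rose at 30 s (Sdc4 and Lrp1), 3 after low trypsin (L1cam, Cadm4 and Lrp1) and Lrp1 alone in each other treatment. Lrp1, an endocytic receptor, thus called in all 5 comparisons, had a log2 fold change of 0.35 at 3 min and 0.38 at 30 min (edgeR adjusted p = 0.000219 and 5.77e-05). Its other 3 calls ended without control replicate 2, at adjusted p-values of 0.148 after 30 s, 0.0723 after low trypsin and 0.264 after the cold protease; 2, 1 and 3 further libraries in these comparisons also ended them. Of 27 integrin adhesion complex genes, Csrp1, a LIM domain protein, rose at 30 s (0.30, edgeR adjusted p = 0.000212), 2 genes rose after low trypsin (Csrp1 and Fermt2) and Rsu1 fell at 30 min.

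Of 16 sheddases, proteases and inhibitors, Adam9, a membrane metalloprotease, rose at 30 s (0.46, edgeR adjusted p = 0.00182) and after low trypsin (0.50, adjusted p = 0.00105). Timp1, an inhibitor of metalloproteases, fell at 30 s (-0.27, edgeR adjusted p = 0.000141), and Timp1 and Mmp14 fell after low trypsin. Of 8 cadherin-catenin genes, Ctnnd1 rose at 3 min and after low trypsin, and of 6 other cadherins Fat1 rose after low trypsin. Of 32 other surface receptors, Notch2 rose at 30 min (0.41, edgeR adjusted p = 0.000568) and after the cold protease, F2r at 30 s, Igf1r at 30 min, and Epha2, Ephb4 and F2r after low trypsin. The calls of this paragraph and the last that stand without a p ended when single libraries were left out, in 1 to 5 of the 6 cases each, with the highest adjusted p between 0.0744 (Timp1 after low trypsin, without low trypsin replicate 1) and 0.354 (Fermt2 after low trypsin, without the same library). Sdc4, L1cam, Fermt2, Mmp14, Igf1r and Ephb4 were named after their values had been seen.

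Counting could blur some members. No source used here names the strand used in counting, and Itgav, Itga7, Ncam1 and Cd44 overlap annotated genes that held 1 to 13 counts in all 18 libraries together. Cdh15 lies within the span of the annotated gene Gm20388 on the same strand, for which no counts were used here. The principal isoform of Itgb5 shares up to 343 nt with Gm38317, and that of Ncam1 a repeat with transcripts of 1614 genes, both outside the last 500 nt, the end that this method mainly counts.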

How the data were processed

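Per the submitters' processing notes, the build was GRCm38 and the tools included HISAT2 2.1.0, UMI-tools 1.0.1, featureCounts 2.0.1, Trim Galore 0.6.6 and cutadapt 2.6. Counts per gene, deposited as whole numbers, were used unaltered in all tests. The deposited normalized signal values and a deposited table that holds CPM entered no test. Gene models came from GENCODE M21.

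Counts of 18 libraries were fitted together in edgeR 4.0.16 (R 4.3.3) with TMM scaling, filterByExpr by group and no covariate, and tested by quasi-likelihood F tests with Benjamini-Hochberg adjustment over 10075 genes; calls are at an adjusted p under 0.05. The tested genes held 99.4% to 99.5% of the counts. CPM are TMM-scaled. An exact permutation test of 3 against 3 libraries cannot go below p = 0.1, so calls rest on the model. Of 11 comparisons, 2 were added after the data were seen. Libraries of a group differed beyond sampling noise in all 18 pairs (chi-square of 1.43 to 2.65 per degree of freedom).

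The members and lists were chosen with earlier results of these data known. Named genes were the 10 members, at most 4 genes per list with the smallest p among those called over the 6 groups, and the 3 genes most like each member called there. Alternatives were DESeq2 1.42.0 (size factors or test), TMM without ribosomal protein and mitochondrial genes, no filter, a mean of at least 10 CPM, a replicate block, only the groups compared, and leaving out each library.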

Additional observations from a re-analysis of the deposited data

Results flagged for a closer look

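Kirrel stood out because its response differed between treatments. The difference of 3 min from 30 s was -0.80 on the log2 scale (edgeR adjusted p = 0.00100), that of 30 min from 30 s was -0.95 (adjusted p = 3.09e-05), and that of low trypsin from 3 min was 1.30 (adjusted p = 3.37e-09). Each kept its call in every alternative run. Low trypsin minus 30 s was 0.50 (adjusted p = 0.0181), with adjusted p-values of 0.0126 to 0.142 over the alternatives. Ncam1 differed between 30 min and 30 s by 0.33 (adjusted p = 0.0152), with adjusted p-values of 0.00229 to 0.175 over the alternatives. In all of these comparisons the 3 libraries of 1 group lay on the same side of the 3 of the other. That held for 16.1% to 20.0% of tested genes in the same comparisons.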

How the results depend on the processing

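Of 120 values (10 members in 11 comparisons and the F test), 8 were called, and 6 of these kept their call in every alternative; of 112 that were not called, 110 were never called. No called value changed sign. The count of members called over the 6 groups was 1, and 1 to 2 with single libraries left out. It was 0 at 30 min against 3 min, and 0 to 1 with libraries left out. It was 2 at 30 min against 30 s, and 1 to 2 with libraries left out. At low trypsin against 30 s it was 1, 0 to 1 with libraries left out and 0 under the DESeq2 test. The other 8 counts did not change. Other scalings moved the median of all genes by at most 0.0049 on the log2 scale. Replicate numbers gave little sign of pairing: 45 same-number pairs had correlations of -0.060 to 0.071. Their median was 0.0046, against -0.0015 for pairs with other numbers, and 9 of 18 libraries correlated best with their own number. A small effect shared by a number is not excluded, because correlations between single libraries also carry their counting error. With a replicate block 1 member was called over the 6 groups, 0 of 120 calls changed, and 1129 genes were called over the 6 groups, against 1158 without it. Cdh2, with 29 to 66 counts per library, and Kirrel, with 31 to 160, had fewer counts than the other 8 members.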
